A study of Mus musculus with 4 samples.

Results

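The genes described here encode the proteasome and the ubiquitin system, measured by RNA sequencing in lymphatic endothelial cells of the meninges. They were chosen by name alone: a row of the deposited table belonged if its symbol was that of a proteasome subunit or cofactor, an E1, E2 or E3 enzyme of a family named Uba, Ube2, Ube3, Ube4, Ubr or Nedd4, a cullin, an F-box or Kelch-like adaptor, a COP9 signalosome subunit, a deubiquitinase, a SUMO or NEDD8 gene, a SUMO protease, a ubiquilin or Vcp. The interferon-induced genes Psmb8, Psmb9, Psmb10 and Usp18 were left out of the rule. It found 167 of the 9114 rows. GENCODE vM21 holds 324 protein-coding names of this pattern, of which 165 had a row, and the remaining rows were the antisense transcript Fbxl12os and the pseudogene Ube2d-ps. The genes with no row are not analysed here.

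The cells came from male C57BL/6J mice of 20 to 24 months. Treated mice had received 5 µL of AAV1-CMV-mVEGF-C into the cisterna magna, and control mice 5 µL of AAV1-CMV-eGFP, 4 weeks before the cells were taken. AAV1 is an adeno-associated virus, mVEGF-C the mouse growth factor of lymphatic vessels and eGFP a fluorescent protein. The CMV promoter is active in many cell types. Single live cells were sorted that carried CD31 and podoplanin but no CD45, a leukocyte protein. Each library held the pooled cells of 10 mice, and there were 2 libraries per group (mVEGF-C 1 and 2, eGFP 1 and 2). Values are normalised read counts, the counts divided by 1 size factor per library. Over the rows of the deposited table, the reads behind them numbered 26754001 and 28632461 in the mVEGF-C libraries and 27618967 and 25610683 in the eGFP libraries.

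Ubiquitin is a small protein that is activated by an E1 enzyme, passed to an E2 enzyme and attached to a target by an E3 ligase, while deubiquitinases take it off again. Chains of ubiquitin can send a protein to the proteasome, whose 20S core particle cuts proteins and whose 19S regulatory particle recognises, unfolds and feeds them in. Cullins are scaffolds of the largest class of E3 ligases, in which F-box and Kelch-like proteins pick the target, NEDD8 on the cullin switches the ligase on, and the COP9 signalosome removes NEDD8. In endothelial cells the system is known for turning over the Notch intracellular domain through the F-box protein FBXW7 and for sorting internalised growth factor receptors.

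The libraries carried lymphatic markers at high levels. The 6 lymphatic genes listed (Prox1, Flt4, Lyve1, Pdpn, Mmrn1 and Reln) summed to 405927 and 346871 normalised counts in mVEGF-C libraries and 328449 and 376468 in eGFP libraries. Genes of other cell types were detected too. Of 6 fibroblast genes, 5 had a row and summed to 67222 and 37736 in mVEGF-C libraries, against 61485 and 25332 in eGFP libraries. The 4 mural genes with a row summed to 12711 and 10108 in mVEGF-C libraries, below the 18643 and 15367 of the eGFP libraries, and 5 blood endothelial genes to 24083 and 35136 against 20973 and 44292. Of 6 leukocyte genes 2 had a row. Cd74 had 7085 and 5440 normalised counts in mVEGF-C libraries and 9252 and 4981 in eGFP libraries, while the T-cell gene Cd3e had 15.2 at most and was at 0 in mVEGF-C 1. The part of other cells in the values below was not tested, and fewer cells of a type and less RNA per cell cannot be told apart in such pools.

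The comparison of mVEGF-C with eGFP libraries asked whether VEGF-C delivery changed the transcripts of this system. Usp2, a ubiquitin-specific protease, was the only gene of the set that passed the test, and it was higher in the mVEGF-C libraries. The other 165 genes tested did not pass, and their fold changes lay on both sides of 0. The test was limma's moderated test on log2(normalised count + 1), with Benjamini-Hochberg adjustment over all 9063 genes of the table with a mean of at least 10, and a gene is said to have passed at an adjusted p under 0.05. Of the 166 genes tested, 1 was higher (0.602%) and 0 were lower, whereas 2.14% of all genes tested passed, 0.828% as higher and 1.31% as lower. At an unadjusted p under 0.05 there were 8 higher and 10 lower, or 10.8% of the set, against 11.8% of all genes. On the recovered reads, edgeR called 3 genes of the set higher and 0 lower, against 67 and 79 of the 9063 genes. DESeq2 called 4 genes of the set higher and 6 lower, against 283 and 318 of the 9063. The libraries of the groups did not overlap for 27 genes with mVEGF-C above and 29 with mVEGF-C below, 33.7% of the set, against 39.2% of all genes. Fold changes are given on the log2(normalised count + 1) scale as mVEGF-C minus eGFP, which understates the change of low genes. Their median was -0.11 in the set and -0.02 over all genes tested, 77 were above 0 and 89 below, and the median size regardless of sign was 0.78 against 0.79. Shares of reads are taken over the rows of the deposited table only. The genes of the set together took 1.42% and 1.48% of these reads in mVEGF-C libraries and 1.45% and 1.44% in eGFP libraries (exact permutation test, two-sided p = 1, where 0.333 is the smallest p that 2 against 2 libraries allow).

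**Figure D1:**
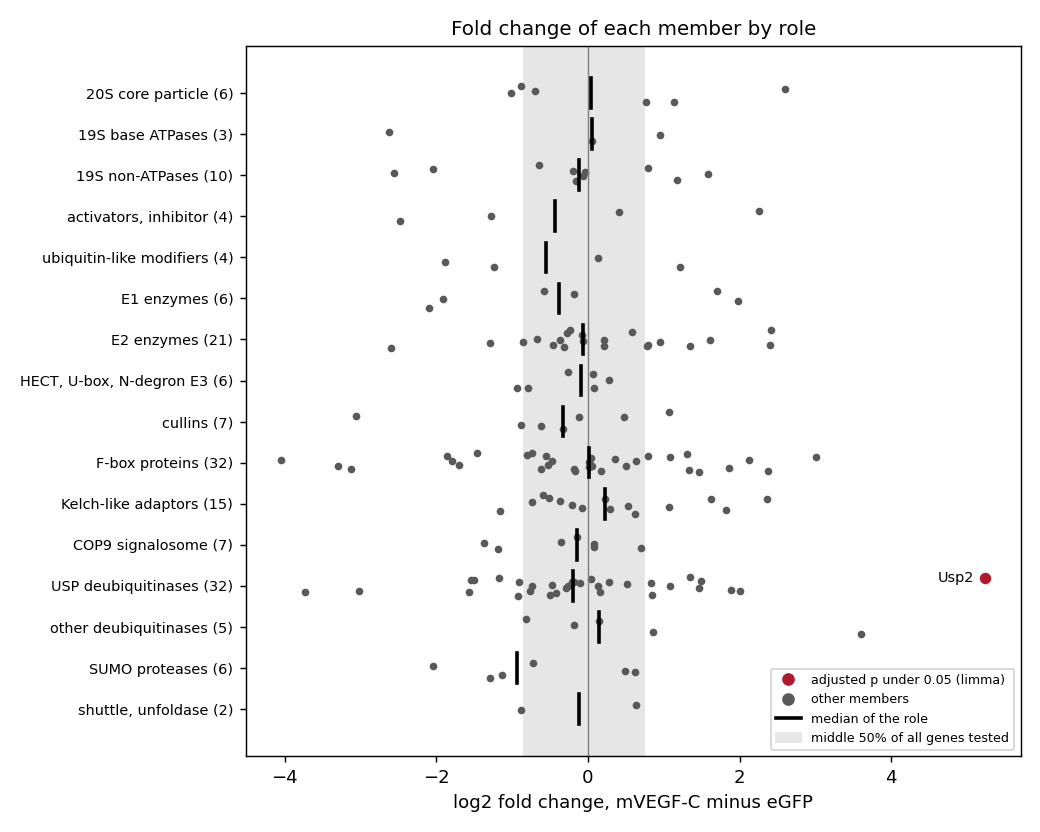
Each point is 1 gene, placed by its log2 fold change (mVEGF-C minus eGFP, x axis) in the row of its role, with the number of genes tested in brackets. Black bars are medians and the grey band is the middle 50% of all genes tested (-0.84 to 0.74). Usp2, at 5.24, is the only point that passed; every role has genes on both sides of 0.

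The replicates in the table bear on every p-value. On the log2 scale of the reads, no gene differed by more than 4.24 between the mVEGF-C libraries or by more than 2.83 between the eGFP libraries, while the gap across the groups reached 10.69. Whether genes with poor replicates were left out before deposit is not stated, and if they were, the p-values are too small by an unknown amount. The variance trend alone set each gene's variance, since the prior degrees of freedom came out as infinite.

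Usp2 encodes a ubiquitin-specific protease known in mouse as a rhythmic output gene of the circadian clock. It lies on chromosome 9 (GRCm38, 44067021 to 44095627). Usp2 had 476 and 1358 normalised counts in mVEGF-C libraries, against 46.6 and 8.55 in eGFP libraries. The groups did not overlap, and eGFP 2 was the lowest of the 4 libraries. The means were 917 ± 624 in mVEGF-C and 27.6 ± 26.9 in eGFP libraries (SD, n = 2 each). This gave 5.24 as the log2 fold change (SE 1.28, 95% interval 2.73 to 7.75), with an adjusted p of 0.00536 in limma. The difference passed in 13 of 17 alternative fits and was positive in all 17. It did not pass in limma without eGFP 2 (log2 fold change 4.08, adjusted p = 0.804), without eGFP 1 (0.0533), without mVEGF-C 2 (0.0503) or without a trend of the variance (0.0674), and over all alternatives the adjusted p ran from 4.91e-05 to 0.804. Usp2 shares exon bases with the annotated genes Gm39325 and Gm49380 on the opposite strand, and the labels do not say whether reads were counted by strand.

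The sequence around a RefSeq start of Usp2 (GRCm38.p6, plus strand, chr9:44084670-44084969) is shown as that of the gene that passed, with the starts of Otub1 (minus strand, chr19:7206235-7206534), Psme1 (plus strand, chr14:55578244-55578543) and Psmc4 (minus strand, chr7:28050043-28050342) for a deubiquitinase and an activator gene with high fold changes and a 19S ATPase gene with a low one. Each runs 5′ to 3′ from 250 bases before to 50 bases after the start. The Usp2 window lies inside the gene as annotated by GENCODE, which has further starts. Capitals mark matches to the antioxidant response element TGACNNNGC, the E-box CACGTG or the interferon-stimulated response element (GAAA and GAAA with 2 bases of any kind between), searched on both strands.
Usp2: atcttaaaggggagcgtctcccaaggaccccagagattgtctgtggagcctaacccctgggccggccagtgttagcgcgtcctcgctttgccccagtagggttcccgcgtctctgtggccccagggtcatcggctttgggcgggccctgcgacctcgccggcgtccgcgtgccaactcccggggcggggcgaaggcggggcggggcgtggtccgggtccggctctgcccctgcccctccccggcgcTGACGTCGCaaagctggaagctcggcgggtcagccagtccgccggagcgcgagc
Otub1: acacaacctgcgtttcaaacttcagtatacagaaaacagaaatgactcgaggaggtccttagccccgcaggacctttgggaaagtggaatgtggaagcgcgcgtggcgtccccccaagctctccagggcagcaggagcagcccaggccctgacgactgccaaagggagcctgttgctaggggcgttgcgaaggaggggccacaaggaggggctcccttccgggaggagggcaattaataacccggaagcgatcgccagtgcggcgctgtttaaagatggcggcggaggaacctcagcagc
Psme1: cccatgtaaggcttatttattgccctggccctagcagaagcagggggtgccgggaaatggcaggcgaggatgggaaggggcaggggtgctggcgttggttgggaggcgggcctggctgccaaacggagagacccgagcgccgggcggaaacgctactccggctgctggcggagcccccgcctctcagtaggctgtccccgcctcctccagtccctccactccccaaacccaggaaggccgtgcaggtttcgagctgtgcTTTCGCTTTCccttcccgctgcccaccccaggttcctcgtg
Psmc4: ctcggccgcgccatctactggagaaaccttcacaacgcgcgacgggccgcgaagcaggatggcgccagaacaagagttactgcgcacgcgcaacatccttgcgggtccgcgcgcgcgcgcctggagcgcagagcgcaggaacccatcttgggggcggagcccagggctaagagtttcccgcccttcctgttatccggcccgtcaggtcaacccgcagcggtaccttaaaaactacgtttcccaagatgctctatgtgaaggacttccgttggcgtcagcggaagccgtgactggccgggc
The windows of Usp2, Psme1 and Psmc4 held 71.7%, 66.3% and 63.7% G and C and that of Otub1 60.0%. Usp2 had 1 match, to the antioxidant response element, which starts 4 bases before the RefSeq start; this is the element through which the factors NRF1 and NRF2 are known to act on proteasome and antioxidant genes. Psme1 had 1 match, to the interferon element on the minus strand, and the windows of Otub1 and Psmc4 had none. RefSeq windows were found for 135 of the 167 genes (171 windows), and 19.3% of them held the antioxidant element, against 13.2% of the 8166 windows of all genes in the table and 12.4% of all 32851 mouse windows. Of the 22 windows of proteasome genes 13.6% held it, close to the share in the whole table. The E-box was in 8.77%, 8.89% and 7.15% of these windows and the interferon element in 3.51%, 3.38% and 3.44%. Each match is a description of the letters in the window.

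No other deubiquitinase passed. Otub1, an OTU-family protease that also blocks E2 enzymes directly, came nearest. Otub1 had 2179 and 2300.4 normalised counts in mVEGF-C libraries, against 442 and 75.9 in eGFP libraries. The means were 2239.8 ± 85.6 in mVEGF-C and 259 ± 259 in eGFP libraries (SD, n = 2 each). Its log2 fold change was 3.60 (interval 1.37 to 5.83; limma, adjusted p = 0.0635). The 2 mVEGF-C libraries agreed closely, and both eGFP libraries lay below them. Without eGFP 2 the log2 fold change was 2.34, and DESeq2 on the recovered reads gave an adjusted p of 0.0205, the lowest of 17 alternatives, in which it reached 0.999. At the other end stood Usp49, a protease that acts on ubiquitinated histone H2B. Usp49 had 41.7 and 183 normalised counts in mVEGF-C libraries, against 1660.2 and 827 in eGFP libraries. Its log2 fold change was -3.73 (limma, adjusted p = 0.0772), and without mVEGF-C 2 it passed at -4.78 (adjusted p = 0.0196). Its adjusted p was 0.00731 in DESeq2, the lowest of the alternatives, and 0.792 at most. Exon bases of Usp49 are shared with Gm20517 and Tomm6. Usp13, with 67.3 and 74.3 normalised counts in mVEGF-C libraries, against 257 and 1296 in eGFP libraries, had a log2 fold change of -3.01 (limma, adjusted p = 0.24) and passed in DESeq2 (adjusted p = 0.00834), with 0.999 as the highest over the alternatives. Both mVEGF-C libraries of Usp49 and of Usp13 lay below both eGFP libraries. Of the 32 USP genes tested 14 were above 0, with a median of -0.20, and of the 5 OTU-family genes 3 were above 0. Usp17lc, 1 of a family of near-identical copies, had 11.8 normalised counts at most and was the 1 gene of the set under the minimum for testing. Usp6nl carries the family's symbol but encodes a GTPase-activating protein for Rab proteins.

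Usp9x and Usp24 had the most reads among the USP genes. Usp9x, a regulator of many adhesion and signalling proteins, had 14957 and 15138 normalised counts in mVEGF-C libraries, against 14444 and 20173 in eGFP libraries. The groups overlapped, and its log2 fold change was -0.18 (interval -1.05 to 0.69; limma, adjusted p = 0.95). Usp24 had 20403 and 10337 normalised counts in mVEGF-C libraries, against 11991 and 11963 in eGFP libraries, so that mVEGF-C 1 stood above the other 3 libraries, which lay closer together. For Usp7, a protease that stabilises MDM2 and p53, values were 4518 and 7407 normalised counts in mVEGF-C libraries, against 3318 and 3103 in eGFP libraries, with no overlap, and the log2 fold change was 0.85 (limma, adjusted p = 0.766). Usp14, which trims ubiquitin chains at the proteasome itself, had 1352 and 3034 normalised counts in mVEGF-C libraries, against 1496 and 859 in eGFP libraries, and its groups overlapped.

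**Figure D2:**
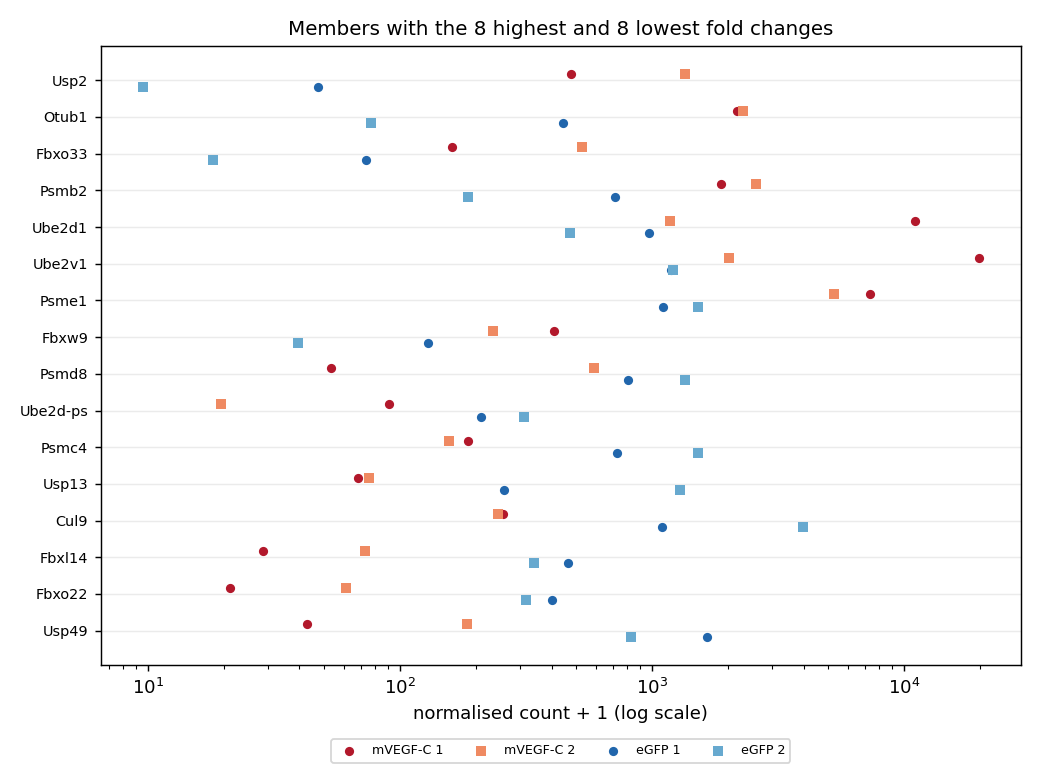
Normalised count plus 1 (log axis) in each library for the 8 genes with the highest and the 8 with the lowest log2 fold change among those with a mean of at least 50. Red and orange marks are mVEGF-C 1 and 2, blue marks eGFP 1 and 2. The groups are apart in all 16 rows, as their choice by fold change favours, and in Ube2d1 and Ube2v1 mVEGF-C 1 lies far to the right of the other 3 marks.

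The first steps of conjugation showed unequal fold changes among the E1 enzymes. Uba1, the main E1 of ubiquitin, had 2656 and 2630.2 normalised counts in mVEGF-C libraries, against 4054 and 2202 in eGFP libraries. These values overlapped, with a log2 fold change of -0.18. Uba7 activates ISG15, a ubiquitin-like protein induced by interferon. Uba7 had 4005 and 4698 normalised counts in mVEGF-C libraries, against 1843 and 655 in eGFP libraries. Both mVEGF-C libraries were above both eGFP libraries, at a log2 fold change of 1.98 with an interval of 0.20 to 3.76, and the adjusted p was 0.324 (limma). Uba6, a second E1 of ubiquitin that also activates FAT10, stood at 1.70 (limma, adjusted p = 0.496). In contrast Uba2, a subunit of the SUMO E1, had 199 and 514 normalised counts in mVEGF-C libraries, against 907 and 2073 in eGFP libraries. Uba3, the catalytic subunit of the NEDD8 E1, had 734 and 178 normalised counts in mVEGF-C libraries, against 1509.7 and 1235 in eGFP libraries. Both had mVEGF-C libraries below the eGFP libraries, at log2 fold changes of -2.10 and -1.91, and neither passed (limma, adjusted p = 0.478 and 0.548). In all, 2 of 6 genes grouped with the E1 enzymes were above 0. The Y-linked relative Uba1y was the lowest of them per length, at 10.0 normalised counts per kb of exon, and its reads can be shared with Uba1.

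Among the modifiers themselves no difference passed. Sumo3 had 296 and 563 normalised counts in mVEGF-C libraries, against 1625 and 1392 in eGFP libraries, at -1.88 (limma, adjusted p = 0.551), and was the 1 modifier with no overlap. Sumo2 had 490.3 and 2607 normalised counts in mVEGF-C libraries, against 1840.1 and 3869.6 in eGFP libraries. The lowest value of Sumo2 was in mVEGF-C 1 and the highest in eGFP 2, at a log2 fold change of -1.24 (limma, adjusted p = 0.712). Of the 6 SUMO proteases 4 were below 0, with a median of -0.93. Senp3, which acts in the nucleolus, had 470.0 and 631 normalised counts in mVEGF-C libraries, against 2413 and 2104 in eGFP libraries, a log2 fold change of -2.05 (limma, adjusted p = 0.427). Senp3 was the lowest of its class.

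The 21 E2 genes had a median log2 fold change of -0.06, and 10 were above 0. A pair of them stood out through 1 library. Ube2v1 encodes a catalytically inactive partner that helps UBE2N build chains linked through lysine 63. Ube2v1 had 19797 and 2030.0 normalised counts in mVEGF-C libraries, against 1189 and 1218 in eGFP libraries. The groups did not overlap, but mVEGF-C 2 was much nearer to the eGFP libraries than to mVEGF-C 1. Ube2d1, an E2 that serves many E3 ligases, had 11046 and 1179.9 normalised counts in mVEGF-C libraries, against 977 and 471 in eGFP libraries, again with the highest value in mVEGF-C 1. Their log2 fold changes were 2.40 and 2.41 in the main fit (limma, adjusted p = 0.125 and 0.222). Without mVEGF-C 1 they were 0.75 and 0.80, and without mVEGF-C 2 they passed at 4.04 and 4.02 (limma, adjusted p = 0.00487 and 0.0192). In edgeR on the recovered reads both passed (adjusted p = 0.00528 and 0.0420), and over all alternatives the adjusted p reached 0.930 and 0.999. The E2 genes summed to 56269 and 33507 normalised counts in mVEGF-C libraries, against 29358 and 27876 in eGFP libraries; with Ube2v1 and Ube2d1 left out, a choice made after their values were seen, the sums were 25425 and 30297 against 27192 and 26187, and the groups overlapped. Ube2v1 shares exon bases with Gm20431 on the same strand. Members of the Ube2d group are alike in sequence, and the pseudogene Ube2d-ps had 89.7 and 18.6 normalised counts in mVEGF-C libraries, against 209.5 and 310.0 in eGFP libraries. Ube2d3 had 199.8 and 3300.1 normalised counts in mVEGF-C libraries, against 2512 and 673 in eGFP libraries, with overlapping groups and a log2 fold change of -0.68.

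Nedd4, a HECT-type E3 ligase that sorts membrane receptors and channels, had the highest level per length of the set, at 5517 normalised counts per kb of exon averaged over the 4 libraries. Nedd4 had 50418 and 53019 normalised counts in mVEGF-C libraries, against 43611 and 55486 in eGFP libraries. The groups overlapped and the log2 fold change was 0.07 (limma, adjusted p = 0.969, interval -0.42 to 0.57), the narrowest interval of the set. With each variance set by the trend, the width follows from the mean count, which was highest for Nedd4. Psme1, Ube2v1, Ube2d1 and Psmc2 followed in level, at 3430, 2805, 2389 and 2046 per kb. Without mVEGF-C 1, an alternative added after seeing the data, Nedd4 stayed first at 5525 per kb, while Psme1 had 2374, Psmc2 1073, Ube2v1 685 and Ube2d1 612. Ubr4, a giant recognin of proteins with destabilising N-termini, had 14558 and 16846 normalised counts in mVEGF-C libraries, against 12330.2 and 13629 in eGFP libraries. Its mVEGF-C libraries were slightly above the eGFP libraries, at 0.27 (limma, adjusted p = 0.919). All 6 E3 genes of these families had log2 fold changes between -0.93 and 0.27.

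Cullin genes lay mostly below 0, with 2 of 7 above. Cul3, the scaffold used with Kelch-like and other BTB-domain adaptors, had 10745 and 10064 normalised counts in mVEGF-C libraries, against 3637 and 6734 in eGFP libraries. Both mVEGF-C libraries were above both eGFP libraries, and the log2 fold change was 1.07 (interval -0.15 to 2.29; limma, adjusted p = 0.536). Cul9, an atypical cullin that binds p53, had 256 and 243 normalised counts in mVEGF-C libraries, against 1098 and 3968 in eGFP libraries. The mVEGF-C libraries nearly coincided and lay below both eGFP libraries, at -3.06 (limma, adjusted p = 0.148). Cul9 passed in DESeq2 at -3.34 (adjusted p = 0.00552, with 0.999 as the highest over the alternatives). Cul1, the scaffold of F-box ligases, Cul4a and Cul5 stood at 0.48, -0.88 and -0.33. Cul5 turned sign when single libraries were left out (-1.35 to 0.70).

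F-box genes were the largest class of adaptors, with 17 of 32 above 0 and a median of 0.02. Fbxw7, which targets Notch, MYC and cyclin E, had 1157 and 776 normalised counts in mVEGF-C libraries, against 1844 and 5113 in eGFP libraries. All of its mVEGF-C values lay below the eGFP values, at a log2 fold change of -1.70 (interval -3.59 to 0.19; limma, adjusted p = 0.517). Fbxo22 had 20.3 and 60.4 normalised counts in mVEGF-C libraries, against 400.3 and 315 in eGFP libraries. Fbxl14, a ligase subunit known for degrading the Snail factors, had 27.8 and 71.5 normalised counts in mVEGF-C libraries, against 464 and 341 in eGFP libraries. For Fbxo22 and Fbxl14 the log2 fold changes were -3.30 and -3.13 (limma, adjusted p = 0.187 and 0.224), and the groups did not overlap for either gene. Both passed in DESeq2 (adjusted p = 0.0135 and 0.0157, with 0.999 as the highest over the alternatives). Fbxo33 was at the opposite end, with 160.2 and 529.6 normalised counts in mVEGF-C libraries, against 72.5 and 17.1 in eGFP libraries (limma, adjusted p = 0.268). Fbxw9 had 408 and 234 normalised counts in mVEGF-C libraries, against 128 and 38.5 in eGFP libraries, at 2.12. The lowest fold change of the whole set was that of the scarce Fbxo44, at -4.04, whose value in mVEGF-C 1 was 0 and whose fold therefore depends on the pseudocount (limma, adjusted p = 0.0724). Fbxw2 had 4478 and 2616 normalised counts in mVEGF-C libraries, against 2123 and 10610.3 in eGFP libraries, with the highest value in eGFP 2.

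Of 15 Kelch-like genes 8 were above 0, with a median of 0.23. Klhl4 and Klhl9, which had the most reads among them, stood at 0.23 and 0.29 and changed sign when a single library was left out (-0.53 to 0.99 and -0.26 to 0.85). The 7 COP9 genes had a median of -0.14, and their sum was 6039 and 8284 normalised counts in mVEGF-C libraries, below the 9836 and 11554 of the eGFP libraries (exact permutation p = 0.333, the smallest possible). Of 16 roles, 5 reached this p, 4 of them with higher sums in mVEGF-C libraries (core particle, activators with the inhibitor, E1 and E2). This p is reached whenever the groups do not overlap, which held for 39.2% of all single genes tested. The median log2 fold change was 0.04 for the core particle, -0.44 for the activators with the inhibitor, -0.38 for E1 and -0.06 for E2. With Uba7 left out of E1, Psme1 of the activators or Psmb2 of the core particle, the sums of the groups overlapped. These genes were chosen after their values were seen. Sums without single genes are given in numbers for E2 and COP9 only. Of the COP9 genes Cops2 had the most reads. It had 2917 and 2559 normalised counts in mVEGF-C libraries, against 5000.1 and 7696 in eGFP libraries. Its log2 fold change was -1.18 (limma, adjusted p = 0.605). Without Cops2, left out after its values were seen, the sums of the other 6 genes were 3122 and 5725 in mVEGF-C libraries, against 4835 and 3858 in eGFP libraries, and overlapped. Cops3 had 1364 and 1083 normalised counts in mVEGF-C libraries, against 1509 and 1184 in eGFP libraries, and its groups overlapped.

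The 23 proteasome genes had a median log2 fold change of -0.06, with 10 above 0 and none past the threshold. At an unadjusted p under 0.05 in limma 2 were higher and 3 lower, or 21.7%, against 11.8% of all genes tested. Of the proteasome genes edgeR called 0 and DESeq2 called 1, Psmc4, as lower. Over all 9063 genes tested, edgeR called 67 higher and 79 lower, and DESeq2 283 and 318. The sums of the proteasome genes ran the other way from the median. They were 46168 and 32146 normalised counts in mVEGF-C libraries, against 30517 and 29201 in eGFP libraries (exact permutation p = 0.333, the smallest possible). Such sums weigh the genes with the most reads most, among them Psme1, whose values follow. Between mVEGF-C 2 and eGFP 1, Psme1 alone differed by more than these sums did. With Psme1 left out, a choice made after its values were seen, the sums of the groups overlapped. The core particle summed to 10218 and 6477 in mVEGF-C libraries, against 5719 and 4003 in eGFP libraries. Without Psmb2, also chosen after its values were seen, the core sums of the groups overlapped. Single genes lay far apart. Psme1 encodes a subunit of the PA28 activator, which binds the ends of the core particle and is known to be induced by interferon gamma. Psme1 had 7337 and 5283 normalised counts in mVEGF-C libraries, against 1111 and 1525 in eGFP libraries. Both mVEGF-C libraries were well above both eGFP libraries, at a log2 fold change of 2.26 (interval 0.60 to 3.91; limma, adjusted p = 0.163). Leaving out any 1 library kept it between 2.02 and 2.49. Psme1 shares exon bases with Emc9 on the opposite strand. Psme3, which encodes the nuclear PA28 gamma, had 144 and 480.3 normalised counts in mVEGF-C libraries, against 634 and 3428 in eGFP libraries. It stood at -2.48 (limma, adjusted p = 0.326), with mVEGF-C below eGFP. Psme4, the PA200 activator, had 8495 and 6559 normalised counts in mVEGF-C libraries, against 7171 and 4417 in eGFP libraries, and the groups overlapped. Psmf1, an inhibitor of the core particle, had 791 and 614 normalised counts in mVEGF-C libraries, against 899 and 3189 in eGFP libraries, at -1.28.

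**Figure D3:**
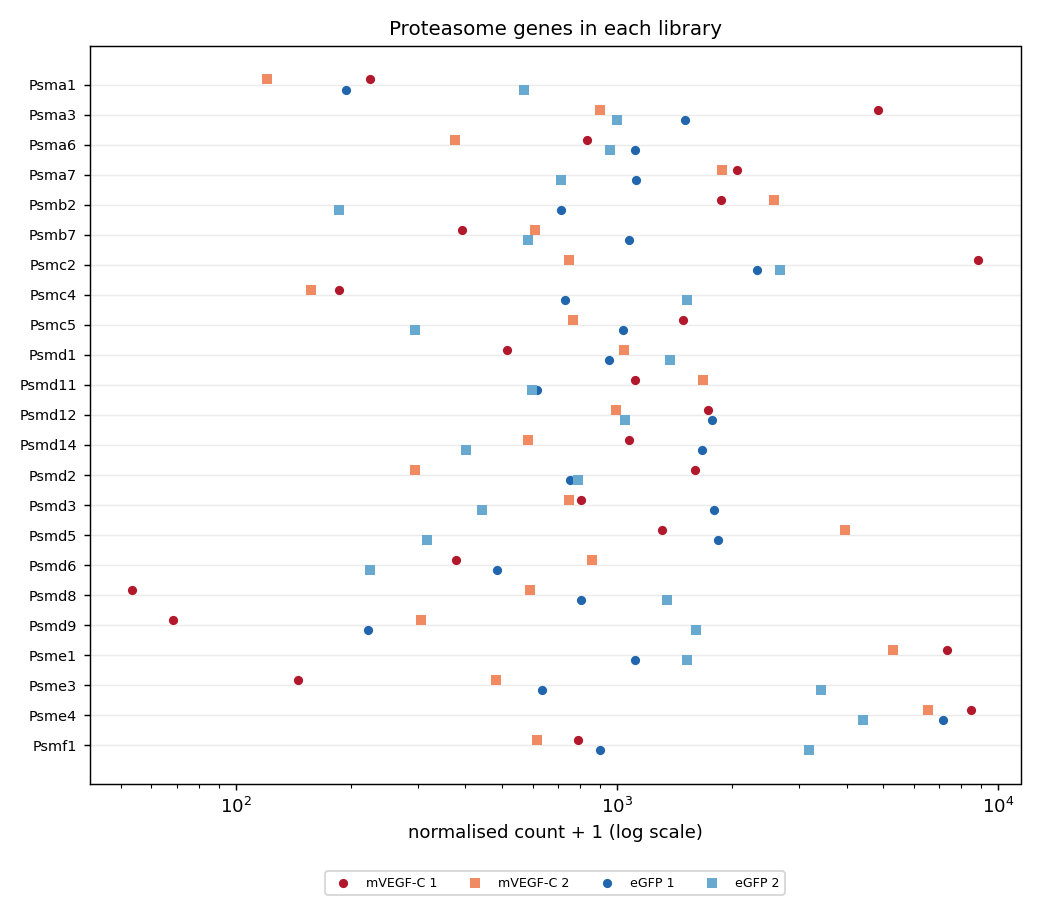
Normalised count plus 1 (log axis) of the 23 proteasome genes in each library, ordered as core particle (Psma, Psmb), base ATPases (Psmc), non-ATPases (Psmd) and activators with the inhibitor (Psme, Psmf). Red and orange marks are mVEGF-C 1 and 2, blue marks eGFP 1 and 2. For most subunits the marks of the groups interleave. In 9 of the 23 genes they do not, or 39.1%, against 39.2% of all genes tested. Of these, 4 show mVEGF-C to the right, among them Psmb2 and Psme1, and 5 to the left, among them Psmc4 and Psmd8.

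Subunits of 1 complex did not share a direction. In the core particle Psmb2 had 1876 and 2587 normalised counts in mVEGF-C libraries, against 714 and 185 in eGFP libraries. The groups were apart, at 2.60 (limma, adjusted p = 0.245). Psma7 also had mVEGF-C above eGFP, with 2058 and 1883 normalised counts in mVEGF-C libraries, against 1121 and 709.8 in eGFP libraries, whereas Psma6 had mVEGF-C below, with 833 and 375 normalised counts in mVEGF-C libraries, against 1117 and 958 in eGFP libraries. Psma3 had 4836 and 902 normalised counts in mVEGF-C libraries, against 1503 and 998 in eGFP libraries. Only mVEGF-C 1 stood apart there, and without it the log2 fold change of 0.77 became -0.44. Psmb7, which carries the trypsin-like active site, had 391 and 609 normalised counts in mVEGF-C libraries, against 1071 and 583 in eGFP libraries, with overlapping groups. Of the 6 core genes 3 were above 0.

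In the regulatory particle, Psmc4, an ATPase of the base, had 186 and 156 normalised counts in mVEGF-C libraries, against 729 and 1529 in eGFP libraries. The groups did not overlap, at a log2 fold change of -2.62 (interval -4.96 to -0.29; limma, adjusted p = 0.316), and DESeq2 gave an adjusted p of 0.0210, with 0.999 as the highest over the alternatives. Psmc2, another ATPase of the same ring, had 8861 and 749 normalised counts in mVEGF-C libraries, against 2325 and 2671 in eGFP libraries, so both the highest and the lowest value belonged to mVEGF-C libraries. Psmc5 stood at 0.95. Of the 10 non-ATPase genes 3 were above 0. Psmd8 had 52.3 and 591 normalised counts in mVEGF-C libraries, against 804 and 1351 in eGFP libraries, at -2.55 (limma, adjusted p = 0.335); it passed without mVEGF-C 2 (-4.29, adjusted p = 0.0458), stood at -0.82 without mVEGF-C 1 and had an adjusted p of up to 0.999 over the alternatives. Psmd14, the deubiquitinase of the lid, had 1077 and 584 normalised counts in mVEGF-C libraries, against 1666 and 401 in eGFP libraries. Psmd12, another subunit of the lid, had 1728 and 990.4 normalised counts in mVEGF-C libraries, against 1772 and 1049.7 in eGFP libraries. For both genes the groups overlapped. Psmd5, an assembly chaperone of the base, was highest in mVEGF-C 2 and lowest in eGFP 2, with 1311 and 3971 normalised counts in mVEGF-C libraries, against 1834 and 315 in eGFP libraries. Vcp, the unfoldase that extracts ubiquitinated proteins for the proteasome, had 3733 and 4172 normalised counts in mVEGF-C libraries, against 3284 and 1958 in eGFP libraries. Its mVEGF-C values lay above both eGFP values, at 0.64 (limma, adjusted p = 0.876). The shuttle gene Ubqln2 had 218 and 3247 normalised counts in mVEGF-C libraries, against 2257 and 1065 in eGFP libraries, with overlapping groups.

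The spread between libraries of a group was smallest among the most abundant genes. Among the 56 genes of the set with the most reads (means of 2021 to 50633) the median difference on the log2 scale was 0.85 in the mVEGF-C pair and 0.61 in the eGFP pair, and among the 55 with the fewest (means of 11.5 to 750.2) it was 1.53 and 1.02. The 55 genes in the middle had 0.99 in the mVEGF-C pair and 1.04 in the eGFP pair, so the eGFP pair did not differ more among the scarcest genes than in the middle. The median fold change regardless of sign was 0.48 for the most abundant genes, 0.76 for those in the middle and 1.07 for the least abundant. Of the 56 genes of the set named by rule, 20 changed sign when some single library was left out and 36 did not.

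**Figure D4:**
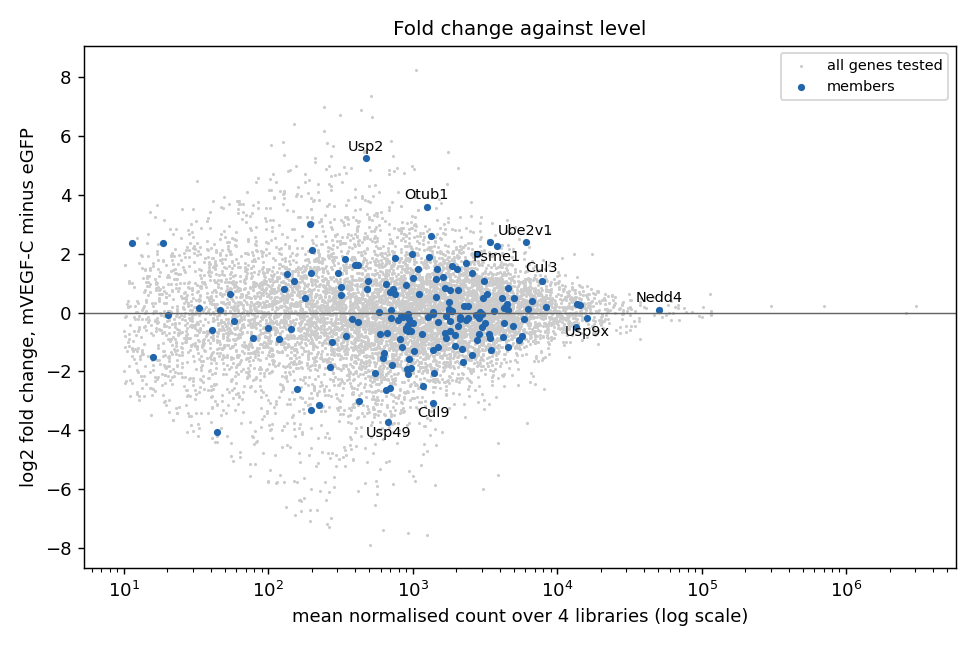
Log2 fold change (mVEGF-C minus eGFP, y axis) against the mean normalised count over the 4 libraries (x axis, log scale) for all genes tested (grey) and the 166 genes of the set tested (blue). The blue points narrow towards 0 at high counts as the grey ones do, with Nedd4 at 0.07 on the right and Usp2 at 5.24 the highest.

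Other genes of the pathway, outside the naming rule, were listed by function; 87 of 132 listed names had a row. Of these, 1 passed, Rnf7, or 1.15%, and none was lower by that test, against 2.14% of all genes. At an unadjusted p under 0.05 in limma 8 were higher and 2 lower, or 11.5%, against 11.8% of all genes. Their median log2 fold change was 0.00. Rnf7 encodes RBX2, the RING partner of CUL5. Rnf7 had 7921 and 1728 normalised counts in mVEGF-C libraries, against 352 and 206 in eGFP libraries. All mVEGF-C values lay above the eGFP values, and the log2 fold change was 3.77 (SE 1.07; limma, adjusted p = 0.0258). It passed in 13 of 17 alternative fits, with an adjusted p of 5.23e-04 to 0.657, and not without mVEGF-C 1 (2.68, 0.418), eGFP 1 (4.16, 0.145) or eGFP 2 (3.39, 0.657), nor without trend (0.146). Tnfaip3, the deubiquitinase A20 that limits NF-kB signalling, had 544 and 386 normalised counts in mVEGF-C libraries, against 62.7 and 20.3 in eGFP libraries, at 3.64 (limma, adjusted p = 0.12). It passed in DESeq2 alone of the 17 alternatives (adjusted p 0.00457 to 0.999). The lowest were Rad23b, a shuttle of ubiquitinated proteins, with 515 and 1244 normalised counts in mVEGF-C libraries, against 3566 and 4804 in eGFP libraries (-2.37), and the membrane-bound ligase Rnf13, with 125 and 1160.4 normalised counts in mVEGF-C libraries, against 3064 and 1197 in eGFP libraries (-2.32). Both had mVEGF-C below eGFP, and neither passed (limma, adjusted p = 0.208 and 0.349). The polyubiquitin gene Ubb had 2619 and 2918 normalised counts in mVEGF-C libraries, against 3755 and 3990.4 in eGFP libraries. The groups of Ubb did not overlap, at a log2 fold change of -0.49 (limma, adjusted p = 0.914). Of the immunoproteasome genes, Psmb9 had 652 and 349 normalised counts in mVEGF-C libraries, against 126 and 522 in eGFP libraries, with overlapping groups.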

How the data were processed

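Expression was measured in 4 RNA-seq libraries of sorted meningeal lymphatic endothelial cells, each from 10 pooled mice, with linear RNA amplification per the labels' protocols. The authors deposited a signal, read counts divided by a size factor per library; per the submitters' processing notes, FastQC, Trimmomatic, Salmon and DESeq2 were used with mm10. Versions and strand setting are not stated. All values (100% within 0.001) were whole multiples of the smallest value above 0 of their library, which gave whole reads for count tests.

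The main test was limma 3.58.1 in R 4.3.3 (eBayes with trend, two-sided, no block) on log2(normalised count + 1), over 9063 genes with a mean of at least 10. The labels do not say that libraries were prepared apart, so p-values rest on the spread between these libraries. In the main fit that spread is taken over genes of like level, and a gene's own spread does not enter its p-value. Alternatives were edgeR 4.0.16, DESeq2 1.42.0, other pseudocounts, filters, scalings and eBayes settings, a replicate block and leaving out each library. The main limma fit was run on simulated counts, and the alternatives were not. That run checked the size of the fold changes and does not bear on the p-values. Coordinates and exon lengths are from GENCODE vM21 (GRCm38, that is mm10). Amplification can bias values per length.

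The genes and lists were chosen with earlier results of these data known. Genes named were those that passed, the 8 highest and 8 lowest fold changes at a mean of at least 50, the 2 with the most reads in each of 16 roles and a fixed set; the others were chosen after their values were seen. Some genes of the rule and of the list of other pathway genes are not reported here.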

Additional observations from a re-analysis of the deposited data

How the results depend on the processing

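In limma with trend 75 genes of the table passed as higher and 119 as lower, and in the set 1 and 0, with a median log2 fold change of -0.11. Without trend the table had 15 and 26 and the set 0 and 0, with 6 and 10 at an unadjusted p under 0.05. DESeq2 gave 283 and 318 in the table and 4 and 6 in the set, with a median of 0.040; edgeR gave 67 and 79, and 3 and 0, with a median of 0.063. Leaving out 1 library at a time gave 5 to 104 genes higher and 0 to 188 lower in the table, 0 to 2 and 0 to 3 in the set, and medians of -0.12 to 0.12. The lowest counts came without eGFP 2. The cause was not tested. Scarce genes are limited by depth.

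The labels share the numbers 1 and 2 between the groups, but deviations of libraries with the same number correlated at 0.00013 over 9063 genes. With the replicate block, 74 genes of the table were higher and 129 lower, and in the set 1 and 1; the lower one was Fbxo44 (limma, adjusted p = 0.0496). No row named by an Ensembl identifier added a gene to the set. Pseudocounts of 0.5 and 5, no minimum or a minimum of 50, robust eBayes and the 4 scalings kept 1 gene higher and 0 lower in the set.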
